A study of Mus musculus with 9 samples.

Results

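The EGF family genes described here are 7 ligand genes (Areg, Ereg, Epgn, Btc, Hbegf, Tgfa and Nrg1) and 3 receptor genes (Egfr, Erbb2 and Erbb3). They were taken by name, 10 of the 56481 gene symbols in a mouse RNA-seq count table, with earlier results of these data known. The table covers 9 libraries, 3 of each of 3 cell populations. Primary neural crest cells (pNCC) came from E13.5 embryos and were kept in DMEM with 10% FBS, non-essential amino acids and L-glutamine. Cells labelled induced corneal endothelial cells (iCEC) were derived from neural crest cells on gelatin in DMEM/F12. This medium held 5% KSR, a serum replacement, non-essential amino acids, 2-mercaptoethanol and 5 µM SB431542, which blocks the TGF-β type I receptor. The iCEC medium was changed every 2 days, clusters were seen at day 4 and colonies were examined at day 12. Cells labelled primary corneal endothelial cells (pCEC) were kept in the same medium as pNCC. The labels name no genetic change in any group. The labels name polyA RNA for 7 libraries and total RNA for pCEC 2 and 3, and separate animals or cultures are not named for the replicates. The p-values therefore measure only the spread between these libraries, which may be technical.

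EGF family ligands are made as membrane-anchored precursors that proteases on the cell surface cut free. Areg, Epgn and Tgfa products bind the EGF receptor, those of Btc, Ereg and Hbegf also bind the receptor encoded by Erbb4, and neuregulin from Nrg1 binds the products of Erbb3 and Erbb4. The Erbb2 product has no known soluble ligand and acts as the partner of the others, while the Erbb3 product has little kinase activity of its own and signals in pairs. Occupied receptors pair, recruit adaptors such as Grb2 and Shc1, and activate the Ras-ERK and PI3K pathways. In the cornea this signalling drives renewal and wound closure of the surface epithelium. In the neural crest, neuregulin and Erbb3 maintain the Schwann cell lineage.

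Markers were compared with the labels before the family was examined. The 12 surface epithelium markers summed to 92.0 to 153 CPM (counts scaled to library size with TMM factors) in pNCC, 16775 to 21600 CPM in iCEC and 36800 to 56985 CPM in pCEC. The pCEC libraries, labelled as endothelium, held 11087 CPM of Krt12, a keratin of the corneal surface epithelium, and 29912 CPM of Krt5 on average. Of 12 corneal endothelium markers, 6 were higher and 3 lower in pCEC than in pNCC, and 5 were higher and 3 lower in iCEC than in pNCC. Over all tested genes, 62.5% and 31.3% were called in either direction in these comparisons. Col8a2 and Slc4a11 averaged 96.2 and 65.2 CPM in pCEC, and Cdh2 averaged 2.34 CPM there against 151 CPM in pNCC. Of 9 tested keratocyte and fibroblast markers, 2 were higher and 5 lower in pCEC than in pNCC, where 62.5% of all tested genes were called. Kera stood at 328 CPM and Thy1 at 0.322 CPM in pCEC. The iCEC libraries held Krt5 and Cdh1 at 6114 and 786 CPM on average, but Krt12 gave a read in 1 library. The 12 corneal endothelium markers summed to 540 to 726 CPM in pNCC, 639 to 860 CPM in iCEC and 881 to 1158 CPM in pCEC. In iCEC 8 of them averaged 1 CPM or more, against 11 in each of pNCC and pCEC, and Col8a2 averaged 0.0713 CPM. The pNCC libraries held the crest and glial gene Sox10 at 34.3 CPM on average. Total counts ran between 27389292 and 47967113 reads per library, which places 3 reads at 0.0615 to 0.126 CPM. Library iCEC 3 stood apart from iCEC 1 and 2, with a chi-square per degree of freedom of 557 and 682 against 240 between those 2, and pCEC 1 from pCEC 2 and 3, with 144 and 95.5 against 49.1. Without iCEC 3, 7 family genes were called in iCEC against pNCC in place of 5, and 7684 of all genes in place of 5093. Without pCEC 1, 9 family genes were called in pCEC against pNCC, as with it, and 10687 of all genes in place of 10382. In iCEC against pCEC, 1 family gene was then called in place of 3, and 1353 of all genes in place of 3327.

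Epgn, Ereg, Areg and Btc lie side by side on mouse chromosome 5 (mm10), where they span 375531 bases with no other protein-coding gene between them. Epgn lies at chr5:91027464-91035215, Ereg at chr5:91074622-91093646 and Areg at chr5:91139599-91148432, all on the plus strand. Btc lies at chr5:91357261-91402994 on the minus strand. Tgfa lies apart from them at chr6:86195223-86275719 on the plus strand. Sequence from the 250 bases before the RefSeq start is printed for the 4 ligand genes that were higher than in pNCC in both iCEC and pCEC. They were picked by these calls, and 3 of them lie in the span on chromosome 5. Between iCEC and pCEC their directions differed, with Tgfa higher and Epgn lower in iCEC. The sequences are from RefSeq (GRCm38.p6), which gave a promoter entry for 6 of the 10 genes, and read 5′ to 3′ on the gene's strand. For Epgn the RefSeq start lies 53 bases inside the GENCODE gene given above, and 197 bases up to that gene are shown. Capitals mark matches on either strand to 1 of 4 motifs. These are the AP-1 letters TGANTCA, the cAMP response element (CRE) letters TGACGTCA, the TATA box letters TATAAA and the GC box letters GGGCGG.
Epgn, chr5:91027267-91027463, plus: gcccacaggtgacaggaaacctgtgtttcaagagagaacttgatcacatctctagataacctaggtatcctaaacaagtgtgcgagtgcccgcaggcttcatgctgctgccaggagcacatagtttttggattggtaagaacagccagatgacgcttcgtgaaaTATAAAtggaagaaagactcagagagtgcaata
Areg, chr5:91139349-91139598, plus: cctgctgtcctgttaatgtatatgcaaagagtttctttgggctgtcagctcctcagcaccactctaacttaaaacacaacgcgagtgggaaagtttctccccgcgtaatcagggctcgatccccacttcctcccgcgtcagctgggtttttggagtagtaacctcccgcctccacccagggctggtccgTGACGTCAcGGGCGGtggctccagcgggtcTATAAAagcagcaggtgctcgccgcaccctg
Btc, chr5:91402995-91403244, minus: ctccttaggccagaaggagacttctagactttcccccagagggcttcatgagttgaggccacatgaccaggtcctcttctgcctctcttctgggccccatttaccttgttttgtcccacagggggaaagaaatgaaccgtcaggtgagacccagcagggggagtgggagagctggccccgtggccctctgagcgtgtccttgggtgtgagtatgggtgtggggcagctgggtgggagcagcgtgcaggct
Tgfa, chr6:86194972-86195221, plus: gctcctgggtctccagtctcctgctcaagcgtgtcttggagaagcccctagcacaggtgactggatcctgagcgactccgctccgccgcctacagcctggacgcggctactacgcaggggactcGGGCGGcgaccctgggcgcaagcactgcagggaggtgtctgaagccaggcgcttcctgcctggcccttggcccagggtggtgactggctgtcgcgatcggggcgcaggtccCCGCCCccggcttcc

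The Areg window held the CRE letters starting 61 bases, a GC box 52 bases and a TATA box 31 bases before the RefSeq start. The Epgn window held a TATA box 86 bases before the RefSeq start and 33 bases before the GENCODE gene, and the Tgfa window held GC boxes at 126 and 15 bases. None of the 4 motifs was found in the Btc window, and the AP-1 letters were in none of the 4 windows. No matches overlapped. Of 32851 promoter windows of the same length, 6.75% held the AP-1 letters, 1.55% the CRE, 12.4% the TATA box and 32.7% the GC box. The windows of Tgfa, Btc and Areg had 69.2%, 59.6% and 57.2% G and C, above the median of 52.4% over all windows, and that of Epgn had 46.8%. These matches describe the letters only.

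Of the 10 family genes, 5 were higher than in neural crest cells in both iCEC and pCEC, and 4 more in pCEC. The largest differences were in Areg, Epgn and Tgfa, 3 ligands of the EGF receptor that were at or below 1.54 CPM in every pNCC library. In iCEC, 5 of the 10 genes were higher than in pNCC (Areg, Epgn, Btc, Tgfa and Erbb2) and none lower. Over all 16293 tested genes, 16.1% were higher and 15.1% lower. In pCEC, 9 were higher than in pNCC, all but Ereg, and none lower. Over all 16608 tested genes, 30.3% were higher and 32.2% lower. The median log2 fold change over the 10 genes was 1.65 in iCEC and 2.66 in pCEC, against 0.05 and -0.01 over all tested genes. The 3 iCEC libraries stood wholly above the 3 pNCC libraries in 6 of the 10 genes and below in none, against 24.4% and 27.4% of all tested genes. The pCEC libraries stood above in all 10, against 35.4% above and 35.6% below over all tested genes. All 10 genes passed the filter on low counts in every comparison. Areg and Epgn, each with 2, 3 and 6 reads in pNCC, passed it against pNCC through iCEC or pCEC alone. Their direction there was therefore fixed, and the counts and medians above include them. Both comparisons use the same 3 pNCC libraries, so their results are not independent. Calls are from edgeR's quasi-likelihood test at a Benjamini-Hochberg adjusted p under 0.05. In bulk samples fewer cells of a type and less RNA per cell cannot be told apart. The surface epithelium markers moved with the family, and their part in these differences was not tested.

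**Figure D1:**
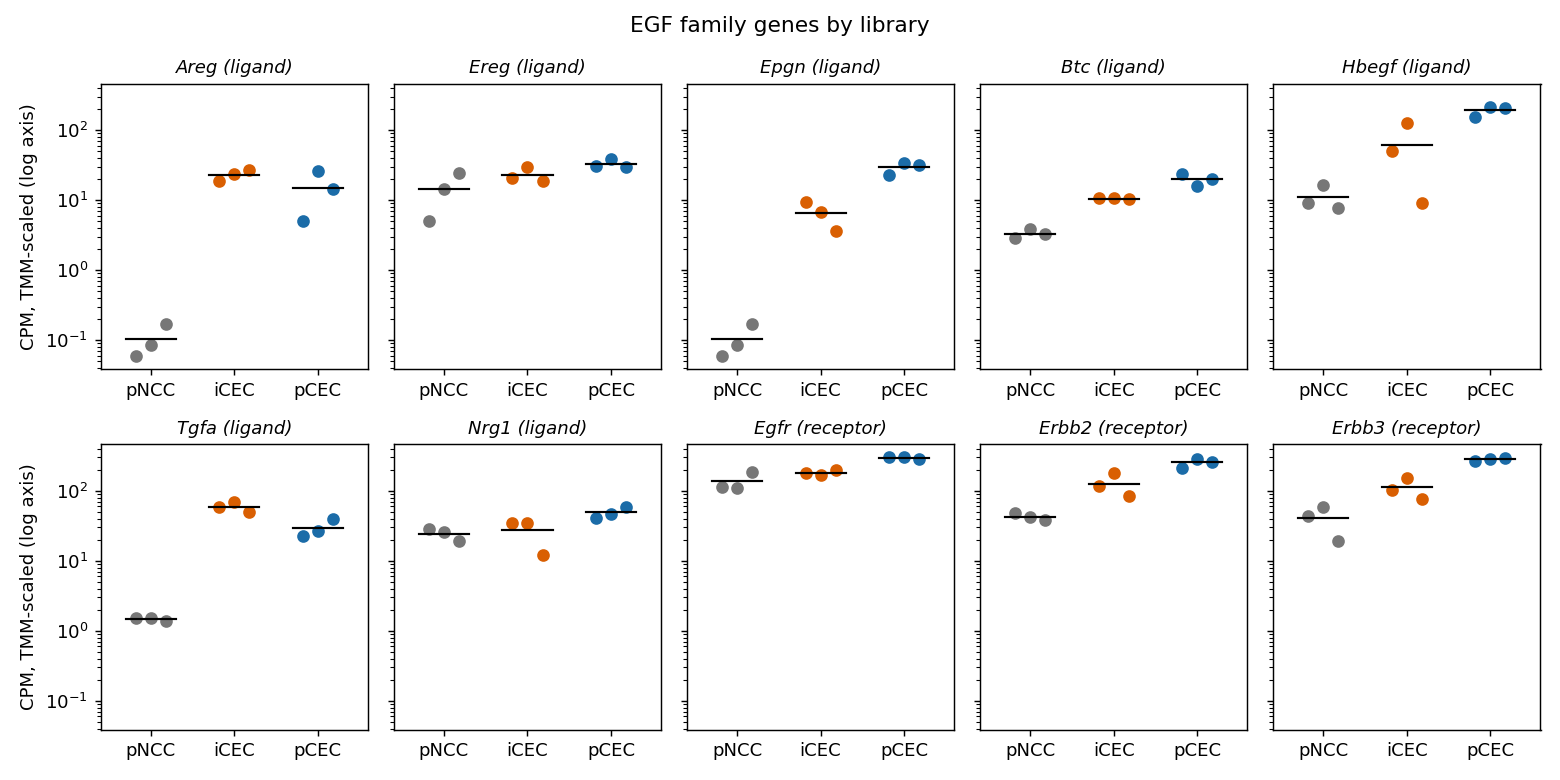
Level of each EGF family gene in each library, in TMM-scaled CPM on a log axis, with 1 point per library and a bar at the group mean. Areg and Epgn lie at 0.0593 to 0.171 CPM in pNCC and above 3 CPM in every other library, while Hbegf in iCEC spreads from 9.22 to 124.5 CPM.

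Areg encodes amphiregulin, an EGF receptor ligand of epithelia. In pNCC it gave 2, 3 and 6 reads, or 0.0593, 0.0843 and 0.171 CPM. It stood at 18.7, 23.5 and 27.1 CPM in iCEC and at 5.09, 25.7 and 14.4 CPM in pCEC. Every iCEC and pCEC library was above every pNCC library, and pCEC 1 was the lowest of the iCEC and pCEC libraries. Areg was 217-fold higher in iCEC than in pNCC (log2 fold change 7.76 ± 0.49 SE, adjusted p = 0.000431) and 134-fold higher in pCEC (7.06 ± 0.78, adjusted p = 0.000237). With pCEC 1 as the only pCEC library, the log2 fold change against pNCC was 5.53.

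Epgn encodes epigen, another EGF receptor ligand. It also gave 2, 3 and 6 reads in pNCC, the same counts as Areg. Its level was 9.45, 6.73 and 3.58 CPM in iCEC and 22.8, 33.8 and 32.2 CPM in pCEC. The 3 groups did not overlap and stood in the order pNCC, iCEC, pCEC. Epgn was 62.1-fold higher in iCEC than in pNCC (5.96 ± 0.68, adjusted p = 0.00231) and 265-fold higher in pCEC (8.05 ± 0.34, adjusted p = 3.15e-06). The few pNCC reads of Areg and Epgn limit the precision of all 4 folds.

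Tgfa encodes transforming growth factor alpha, an EGF receptor ligand of many epithelia. Its level was 1.54, 1.52 and 1.40 CPM in pNCC, 59.4, 70.0 and 49.2 CPM in iCEC and 22.99, 26.4 and 40.3 CPM in pCEC. The groups did not overlap and, unlike those of Epgn, stood highest in iCEC. Tgfa was 40.9-fold higher in iCEC than in pNCC (5.35 ± 0.23, adjusted p = 0.000241) and 19.6-fold higher in pCEC (4.29 ± 0.25, adjusted p = 1.09e-05).

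Btc encodes betacellulin, which binds the EGF receptor and the Erbb4 product. Its level was 2.85, 3.85 and 3.26 CPM in pNCC, 10.6, 10.6 and 10.4 CPM in iCEC and 23.97, 15.8 and 19.9 CPM in pCEC. The groups did not overlap, and the iCEC libraries were nearly equal. Btc was 3.25-fold higher in iCEC than in pNCC (1.70 ± 0.28, adjusted p = 0.00690) and 5.91-fold higher in pCEC (2.56 ± 0.24, adjusted p = 8.31e-05).

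Ereg encodes epiregulin, and had the highest mean CPM of the chromosome 5 group in neural crest cells. It stood at 5.02, 14.2 and 24.4 CPM in pNCC, 20.9, 29.5 and 18.9 CPM in iCEC and 30.5, 39.2 and 29.9 CPM in pCEC. The pNCC libraries spread 4.87-fold and overlapped those of iCEC, while every pCEC library was above them. Neither difference passed the test (iCEC against pNCC 0.70 ± 0.55, adjusted p = 0.381, and pCEC against pNCC 1.16 ± 0.50, adjusted p = 0.0812). Without pNCC 3, the highest of its group, the difference between pCEC and pNCC was 1.75 with an adjusted p of 0.0120.

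The 2 protein-coding genes flanking the chromosome 5 group were read for comparison because of their position. Mthfd2l, a mitochondrial folate enzyme gene beside Epgn, averaged 13.9 CPM in pNCC, 12.8 CPM in iCEC and 14.3 CPM in pCEC, and passed neither test against pNCC (log2 fold changes -0.09 and 0.02). Parm1, beyond Btc, averaged 6.68 ± 0.55, 121 ± 74.3 and 82.5 ± 22.2 CPM (SD, n = 3) and was higher in both iCEC (4.21, adjusted p = 0.00231) and pCEC (3.59, adjusted p = 1.09e-05). The group of ligand genes was thus bordered by Mthfd2l, which did not pass, and by Parm1, which was higher in both.

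Hbegf, on chromosome 18, encodes heparin-binding EGF-like growth factor, a ligand of wounded epithelia. It stood at 8.96, 16.4 and 7.69 CPM in pNCC, 50.1, 124.5 and 9.22 CPM in iCEC and 155, 215 and 205 CPM in pCEC. The pCEC libraries were above all others, whereas iCEC 3 fell within the pNCC range. Hbegf was 17.1-fold higher in pCEC than in pNCC (4.09 ± 0.32, adjusted p = 4.46e-05). The difference between iCEC and pNCC did not pass (2.51 ± 0.89, adjusted p = 0.0795), and without iCEC 3 it was 2.99 with an adjusted p of 0.00551. The summed level of 10 leukocyte markers followed the same order across the iCEC libraries. It was 36.0, 137 and 15.3 CPM, of which Itgam alone gave 4.94, 80.1 and 0 CPM. Of the 10 markers, 3 averaged 1 CPM or more in iCEC. Ptprc, Tyrobp, Adgre1, Lyz2 and Cd3e had no read in any iCEC library. The part of these genes in the Hbegf values was not tested.

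Nrg1 (chr8:31814551-32884029, minus) encodes neuregulin 1, a ligand for the Erbb3 and Erbb4 products. Its level was 28.4, 25.5 and 19.5 CPM in pNCC, 35.2, 35.2 and 12.2 CPM in iCEC and 41.2, 47.2 and 59.2 CPM in pCEC. The pCEC libraries were above all others, and iCEC 3 was the lowest of the 9. Nrg1 was 1.97-fold higher in pCEC than in pNCC (0.98 ± 0.18, adjusted p = 0.00270), a call that did not pass when all 9 libraries shared 1 fit (adjusted p = 0.0585). It did not pass in iCEC against pNCC (0.20 ± 0.43, adjusted p = 0.758), where the sign turned without iCEC 1 (-0.01) or iCEC 2 (-0.02).

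**Figure D2:**
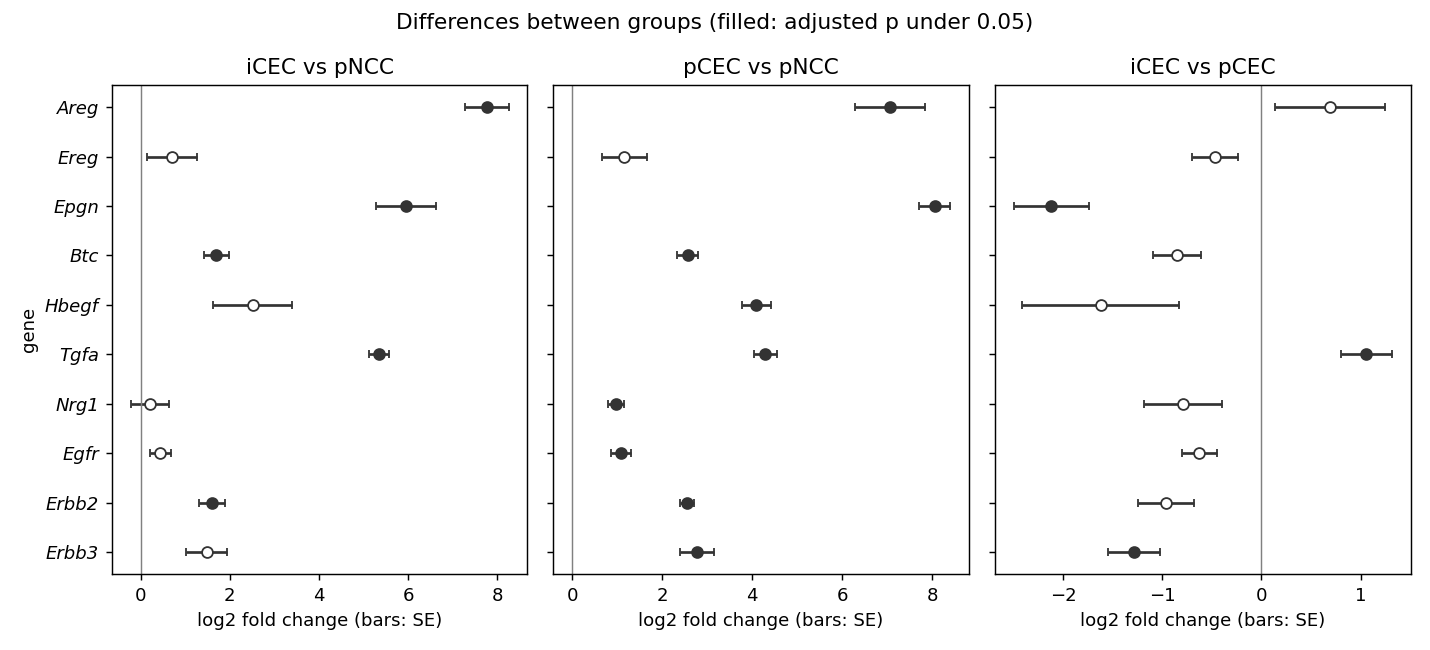
Log2 fold change of each EGF family gene in the 3 comparisons, with bars of 1 SE and filled points for an adjusted p under 0.05. All 10 genes lie to the right of 0 in both comparisons with pNCC, and 8 of 10 lie to the left in iCEC against pCEC.

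The receptors differed by smaller folds than the ligands Areg, Epgn and Tgfa, and each was higher in pCEC than in pNCC. Egfr (chr11:16752203-16918158, plus), the EGF receptor itself, was abundant in every population. It stood at 114, 111 and 187 CPM in pNCC, 180, 169 and 199 CPM in iCEC and 301, 301 and 281 CPM in pCEC. The pCEC libraries were above all others, and pNCC 3 lay within the iCEC range. Egfr was 2.11-fold higher in pCEC than in pNCC (1.08 ± 0.22, adjusted p = 0.00422) and did not pass in iCEC (0.44 ± 0.24, adjusted p = 0.219).

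Erbb2 (chr11:98412470-98437716, plus), the shared partner receptor, stood at 47.6, 42.8 and 37.8 CPM in pNCC, 117, 178 and 84.5 CPM in iCEC and 214, 289.5 and 261 CPM in pCEC. The groups did not overlap and stood in the order pNCC, iCEC, pCEC. Erbb2 was 3.03-fold higher in iCEC (1.60 ± 0.30, adjusted p = 0.0107) and 5.84-fold higher in pCEC (2.55 ± 0.15, adjusted p = 1.11e-05) than in pNCC. The call in iCEC was lost without pNCC 2 (adjusted p = 0.0572) or pNCC 3 (adjusted p = 0.0551). Exons of Erbb2 overlap Mien1 on the opposite strand, which had at most 555 reads in a library, and the strand setting of the counting was not given in the sources used here.

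Erbb3, the neuregulin receptor, stood at 44.4, 58.7 and 19.4 CPM in pNCC, 103, 155 and 77.6 CPM in iCEC and 263, 289 and 294 CPM in pCEC. The groups did not overlap, and their order was that of Erbb2. The gene lies at chr10:128567523-128589652 on the minus strand. Erbb3 was 6.80-fold higher in pCEC than in pNCC (2.77 ± 0.38, adjusted p = 0.000662). In iCEC the difference of 1.49 ± 0.46 missed the threshold (adjusted p = 0.0529) and passed without iCEC 3 (adjusted p = 0.0299). Within pNCC, Sox10 stood at 36.1, 49.9 and 16.9 CPM, the same order as Erbb3. In iCEC, where Erbb3 was higher, Sox10 gave a read in 1 library, and in pCEC it was at most 0.503 CPM. Of 9 Schwann and glial markers, the summed level was 286, 382 and 151 CPM in pNCC, 44.8 to 90.6 CPM in iCEC and 270 to 352 CPM in pCEC, where Mbp and Ngfr made up most of it. The part of glial cells in the Erbb3 values was not tested.

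Among the 7 listed ligands, a different ligand led by mean level per kilobase of merged exons in each population. Egf, Nrg2, Nrg3 and Nrg4 were left out of these levels and of the shares below. Of these, Nrg2 averaged 28.6 CPM in pCEC, over 3139 bases of merged exons. Among the receptors Egfr led in pNCC, and Erbb2 led in both iCEC and pCEC, with ranges that overlapped those of Erbb3. In pNCC the ligand levels were led by Ereg, Nrg1 and Hbegf at 3.53, 2.37 and 2.28 CPM per kilobase, whose ranges overlapped. They were followed by Btc at 0.734 and Tgfa at 0.229, and by Areg and Epgn at 0.0865 and 0.0581 CPM per kilobase, which overlapped. In iCEC the ligand levels were led by Areg, Hbegf and Tgfa at 19.0, 12.7 and 9.17 CPM per kilobase, with overlapping neighbours. Ereg, Epgn, Nrg1 and Btc followed at 5.60, 3.64, 2.66 and 2.33 CPM per kilobase, and of these steps the one from Tgfa to Ereg alone had ranges that did not overlap. In pCEC the Hbegf level of 39.7 CPM per kilobase was above Epgn at 16.4 in every library. Areg and Ereg came next at 12.4 and 8.04, and Nrg1, Tgfa and Btc at 4.75, 4.60 and 4.40 CPM per kilobase were not separated. The order of the ligand levels depended on the gene model. With the length of the longest transcript, Nrg1 led in pNCC and Hbegf led in iCEC, and Hbegf still led in pCEC.

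Expressed as shares of the summed ligand level per kilobase, Areg made up 0.906 ± 0.37% in pNCC, 36.7 ± 14.5% in iCEC and 12.8 ± 6.95% in pCEC (SD, n = 3). Hbegf made up 24.9 ± 8.86%, 20.2 ± 15.5% and 44.3 ± 2.25% of it. Within iCEC these 2 shares ran in opposite order, with Areg at 30.2%, 26.6% and 53.3% and Hbegf at 20.4%, 35.5% and 4.56%. Tgfa made up 2.59 ± 0.80%, 17.0 ± 1.84% and 5.15 ± 1.32%. Nrg1 and Ereg, which together made most of the ligand level in pNCC (27.3 ± 11.8% and 35.6 ± 19.2%), took 4.73 ± 1.93% and 10.3 ± 0.61% in iCEC and 5.34 ± 0.91% and 9.08 ± 1.56% in pCEC. Shares sum to a fixed total, so a lower share is not a lower level, and neither Nrg1 nor Ereg was called lower than in pNCC. No test was made on shares.

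Among the receptors, Egfr led in pNCC with 12.1 CPM per kilobase, above Erbb2 at 8.20 in every library, with Erbb3 at 6.79. In iCEC the levels of Erbb2, Erbb3 and Egfr were 24.3, 18.6 and 16.1 CPM per kilobase, and neighbouring ranges overlapped. In pCEC they were 48.9, 46.9 and 26.0 CPM per kilobase, and Erbb3 was above Egfr in every library. Egfr made up 44.7 ± 14.3% of the summed receptor level per kilobase in pNCC, 28.7 ± 8.82% of it in iCEC and 21.5 ± 2.10% of it in pCEC (SD, n = 3). The order of the receptors was the same with the longest transcript.

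**Figure D3:**
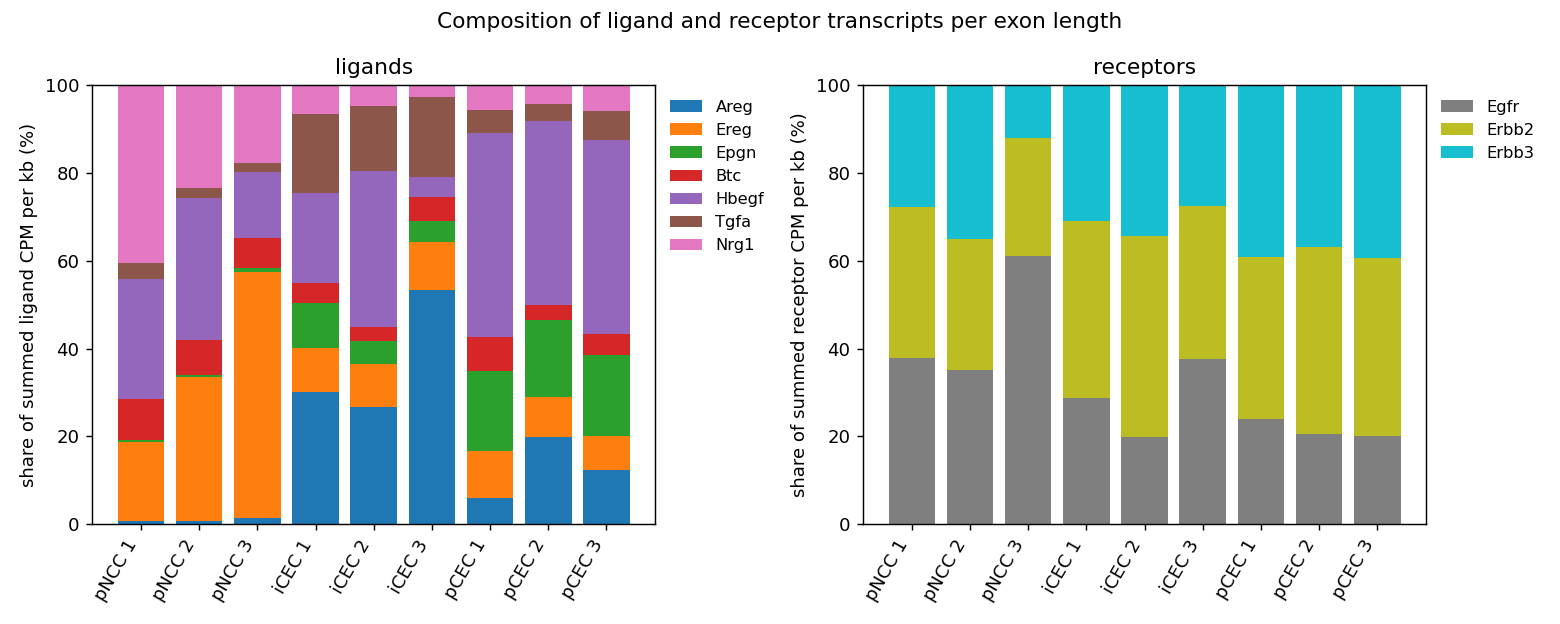
Share of each ligand (left) and each receptor (right) in the summed CPM per kilobase of its kind among the 10 genes, in percent. Each library has 1 stacked bar that reaches 100%. Areg takes 26.6 to 53.3% of the ligand bar in iCEC and at most 1.34% in pNCC, and Egfr takes 61.1% of the receptor bar in pNCC 3.

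Between the cells labelled induced and primary, Tgfa was higher in iCEC than in pCEC, and Epgn and Erbb3 were lower. These are 3 of 10 genes, where 10.5% of 16278 tested genes were higher and 9.92% lower. Tgfa was 2.08-fold higher in iCEC (1.05 ± 0.26, adjusted p = 0.0328). Epgn was 4.34-fold lower (-2.12 ± 0.38, adjusted p = 0.0129) and Erbb3 was 2.44-fold lower (-1.28 ± 0.26, adjusted p = 0.0180). The other 7 did not pass, and 6 of these had a negative log2 fold change. Areg was the exception at 0.69 ± 0.55 (adjusted p = 0.420). Btc, Egfr and Erbb2 fell just outside the threshold at -0.85 ± 0.24, -0.62 ± 0.18 and -0.96 ± 0.28, with adjusted p of 0.0513, 0.0531 and 0.0571. Every pCEC library stood above every iCEC library in 8 of the 10 genes, and every iCEC library stood above in Tgfa. Over all tested genes these shares were 24.3% and 19.7%. The median log2 fold change over the 10 genes was -0.82, against 0.04 over all tested genes. With pCEC 1, the library labelled polyA RNA, as the only pCEC library, none of 18806 genes passed in edgeR, and 2529 of them, 4 of the family among them, had an unadjusted p under 0.05. None of the 3 calls held in every fit that left out 1 library, with adjusted p up to 0.139 for Tgfa without pCEC 2, 0.0601 for Epgn without pCEC 3 and 0.0719 for Erbb3 without pCEC 3. The Epgn call was also lost without pCEC 2. The Erbb3 call was also lost without iCEC 1, pCEC 1 or pCEC 2, and the Tgfa call without iCEC 1, iCEC 2 or pCEC 1.

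The 5 remaining family genes were scarce in pNCC. Erbb4 passed the filter on low counts through pCEC alone, which fixes its direction, and Nrg3 was not tested. The other 3, Egf, Nrg2 and Nrg4, were all higher in pCEC than in pNCC, where 30.3% of all tested genes were. Nrg2 was higher in iCEC than in pNCC, where 16.1% were, and all 3 were lower in iCEC than in pCEC, where 9.92% were. With 8, 2 and 8 reads in pNCC, Nrg2 passed the filter against pNCC through pCEC or iCEC alone, which fixes its direction there. Nrg4, with 6 reads in pNCC 2, needed pCEC libraries to pass in pCEC against pNCC. Egf, the founding ligand, averaged 1.53 ± 0.52 CPM in pNCC, 1.36 ± 0.29 CPM in iCEC and 7.38 ± 0.60 CPM in pCEC (SD, n = 3), and was 4.74-fold higher in pCEC than in pNCC (adjusted p = 0.000738). Nrg2, a second neuregulin gene, averaged 0.174 ± 0.10, 1.34 ± 0.87 and 28.6 ± 2.45 CPM. It was 159-fold higher in pCEC than in pNCC (adjusted p = 6.43e-06). In iCEC it was 7.78-fold higher than in pNCC (adjusted p = 0.0463), a call lost without any of pNCC 1, 2 and 3 and iCEC 1 and 2, with adjusted p of 0.0949 to 0.156. Erbb4, the remaining receptor gene, gave 0, 2 and 0 reads in pNCC, none in iCEC and 48, 48 and 23 in pCEC. Its summed reads per scaled total were 68.9-fold higher in pCEC than in pNCC, with a 95% counting interval of 18.7 to 576. It was at least 17.4-fold higher in pCEC than in iCEC, computed at 3 reads in each iCEC library. Nrg4 was measured at mean levels of 0.563, 0.629 and 2.21 CPM in the same order of groups, and exons of Fbxo22 overlap it on the opposite strand, so its values are uncertain. Nrg3 had 2 reads, both in pCEC 2. In iCEC against pCEC, Egf was 5.16-fold and Nrg2 20.7-fold lower (adjusted p = 0.0110 and 0.00702), and the Egf call was lost without pCEC 1, 2 or 3, with adjusted p up to 0.0624. The Erbb4 call there (adjusted p = 0.00885) was lost without pCEC 2 (adjusted p = 0.0515), and that of Nrg4 (adjusted p = 0.0382) without any 1 of the 6 libraries. The Nrg4 call in pCEC against pNCC (adjusted p = 0.0213) was lost without pNCC 3 or pCEC 2 (adjusted p = 0.0518 and 0.0515).

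Genes that release and carry the ligands moved in both directions. Of 12 such genes, 3 were higher and 3 lower in iCEC than in pNCC, and 4 were higher and 6 lower in pCEC than in pNCC, where 31.3% and 62.5% of all tested genes were called in either direction. Adam12, a metalloprotease that can cut Hbegf, averaged 334 CPM in pNCC, 0.398 CPM in iCEC and 0.109 CPM in pCEC. Its log2 fold changes were -9.66 and -11.53 (adjusted p = 0.000126 and 6.45e-07). In pCEC against pNCC, Adam12 passed the filter on low counts through pNCC alone, which fixes its direction there. In iCEC against pNCC it needed pNCC libraries to pass. Adam9, a related protease, averaged 412, 101 and 68.4 CPM and was lower in both (adjusted p = 0.00150 and 9.27e-06). Rhbdl2, a rhomboid protease, and Ap1m2, the epithelial subunit of the AP-1 sorting complex, were higher in both. Rhbdl2 averaged 0.162, 21.1 and 22.5 CPM (log2 fold changes 7.03 and 7.05). Ap1m2 averaged 0.315, 43.7 and 94.0 CPM (log2 fold changes 7.13 and 8.17). At 0.0890 to 0.229 CPM in pNCC, Rhbdl2 passed the filter on low counts against pNCC through iCEC or pCEC alone, which fixes its direction. Ap1m2, at 0.178 CPM in pNCC 1, needed iCEC or pCEC libraries to pass there. The counts above include Adam12, Rhbdl2 and Ap1m2. Adam17, the principal sheddase of Areg, Tgfa and Hbegf, is named after its values were seen. It averaged 116 ± 14.2 CPM in pNCC, 95.6 CPM in iCEC and 115 CPM in pCEC and passed no test (adjusted p = 0.350, 0.910 and 0.500 for iCEC against pNCC, pCEC against pNCC and iCEC against pCEC).

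In iCEC against pCEC, 2 of 11 tested genes of this list were higher and 1 lower, where 10.5% and 9.92% of all tested genes were. Without pCEC 1, 1 gene was called, in the lower direction, while calls over all genes fell from 3327 to 1353. Nkd2, which escorts vesicles carrying the Tgfa product in cultured dog kidney cells, averaged 503 ± 759 CPM in iCEC and 1.64 CPM in pCEC. Its log2 fold change was 8.38 (adjusted p = 0.0272) and was 5.37 without iCEC 3, and the call was lost without any 1 pCEC library. Adam10, the sheddase of the Btc and Egf products, averaged 203 CPM in iCEC and 108 CPM in pCEC (0.96, adjusted p = 0.0346), and its call was lost without any 1 library other than iCEC 3. Ap1m2 was lower in iCEC (-1.04, adjusted p = 0.0132), a call lost without pCEC 2 or pCEC 3.

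Feedback inhibitors of the receptors moved in both directions, and Lrig1, Dusp4 and Spry1 moved in opposite directions in iCEC and pCEC against pNCC. Of 17 inhibitors, 2 were higher and 5 lower in iCEC than in pNCC, and 5 were higher and 6 lower in pCEC than in pNCC. The called share was 41.2% in iCEC and 64.7% in pCEC, against 31.3% and 62.5% of all tested genes, so that in pCEC it was near the background. Without iCEC 3 the counts in iCEC were 3 higher and 8 lower, while calls over all genes rose from 5093 to 7684. Lrig1, which sends ErbB receptors to degradation, averaged 158 CPM in pNCC, 24.1 CPM in iCEC and 310 CPM in pCEC. It was lower in iCEC than in pNCC (log2 fold change -2.68, adjusted p = 0.000470), higher in pCEC than in pNCC (0.94, adjusted p = 0.00206), and lower in iCEC than in pCEC (-3.62, adjusted p = 0.00153). Dusp4, a nuclear phosphatase of ERK, averaged 29.3, 86.2 and 0.629 CPM. It was higher in iCEC than in pNCC (1.59, adjusted p = 0.0345), higher in iCEC than in pCEC (7.15, adjusted p = 0.00187) and lower in pCEC than in pNCC (-5.57, adjusted p = 0.000111). The first of these calls was lost without any 1 library other than iCEC 3, with adjusted p of 0.0541 to 0.104. With pCEC 1 at 0.269 CPM, Dusp4 needed libraries of the other group to pass the filter on low counts against pCEC. Spry1, named after its values were seen, averaged 50.9, 11.5 and 73.4 CPM. It was lower in iCEC than in pNCC (-2.11, adjusted p = 0.0497) and than in pCEC (-2.57, adjusted p = 0.0414), and higher in pCEC than in pNCC (0.50, adjusted p = 0.0444), where the groups overlapped. The first of these Spry1 calls was lost without any 1 library other than iCEC 3 (adjusted p up to 0.138), and without iCEC 3 that difference was -3.21. The call in iCEC against pCEC was likewise lost without any 1 library other than iCEC 3, where the difference was -3.68. The call in pCEC against pNCC was lost without pNCC 1, pNCC 2, pCEC 2 or pCEC 3 (adjusted p up to 0.139). Spry2 and Spry4, which damp Ras-ERK signalling, were lower in iCEC than in pNCC. Spry2 averaged 61.2 and 13.1 CPM (-2.19, adjusted p = 0.0121), and Spry4 averaged 18.2 and 0.0956 CPM (-7.39, adjusted p = 0.0113). The Spry4 call was lost without pNCC 3 (adjusted p = 0.0533). Spry4 needed pNCC libraries to pass the filter on low counts there. Its iCEC reads were all in iCEC 1, at 0.287 CPM, and at 3 reads in each of iCEC 2 and 3 it was at least 227-fold lower there than in pNCC. Errfi1, a direct inhibitor of the EGF receptor kinase, averaged 134 CPM in pNCC and 42.8 CPM in iCEC (-1.61, adjusted p = 0.0290), a call lost without any pNCC library or without iCEC 2, with adjusted p of 0.0552 to 0.101. In pCEC against pNCC, Socs5 (-2.12, adjusted p = 1.80e-05) and the ubiquitin ligase gene Cblb (-1.44, adjusted p = 4.98e-05) were lower, and the phosphatase gene Ptpn1 was higher (1.75, adjusted p = 3.62e-05). In iCEC against pCEC, 3 inhibitors were higher and 3 lower, or 35.3% against 20.4% of all tested genes. Socs5, whose product promotes loss of the EGF receptor, was higher in iCEC (2.03, adjusted p = 0.00408). Ptpn1 was lower (-1.01, adjusted p = 0.0174), a call lost without pCEC 2 or pCEC 3.

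The adaptors and the Ras-ERK core had medians close to 0. Of 18 genes, 3 were higher and 2 lower in iCEC than in pNCC, and 5 were higher and 7 lower in pCEC than in pNCC. The called shares of 27.8% and 66.7% were near the 31.3% and 62.5% of all tested genes. Without iCEC 3 the counts in iCEC were 5 higher and 5 lower, while calls over all genes rose from 5093 to 7684. The median log2 fold changes were -0.08 and -0.07. Gab1, a docking protein under the EGF receptor, averaged 28.0, 92.4 and 93.6 CPM and was higher in both (1.75 and 1.71, adjusted p = 0.00301 and 6.88e-05). Hras averaged 45.7, 81.7 and 143 CPM and was higher in both (0.87 and 1.62, adjusted p = 0.0119 and 8.84e-05), the first call being lost without pNCC 1 or pNCC 2. Shc1 averaged 224, 82.7 and 100 CPM and was lower in both (-1.41 and -1.19, adjusted p = 0.0158 and 0.000154), the first call being lost without any pNCC library. Pik3r1, a regulatory subunit of PI3K, was higher in iCEC than in pNCC (1.78, adjusted p = 0.0150), a call lost without pNCC 2 or pNCC 3. The kinase gene Braf was higher in pCEC than in pNCC (1.08, adjusted p = 0.00148). In iCEC against pCEC, Grb2 was higher (0.85, adjusted p = 0.0487) and Braf and Hras lower (-0.82 and -0.74, adjusted p = 0.0355 and 0.0369) among 18 genes, 16.7% of them against 20.4% of all tested genes, and each of these 3 calls was lost without any 1 library other than iCEC 3.

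Genes that ERK signalling is known to induce were mixed. Of 13, 4 were higher and 2 lower in iCEC than in pNCC, and 7 were higher and 2 lower in pCEC than in pNCC, with median log2 fold changes of 1.23 and 1.47. The called shares were 46.2% and 69.2%, against 31.3% and 62.5% of all tested genes. The 7 included Fos and Dusp1, named after their values were seen, in which pCEC 1 stood far below pCEC 2 and 3. Fos stood at 43.0, 3059 and 1167 CPM in pCEC and at 21.1 to 23.1 CPM in pNCC (5.94, adjusted p = 0.00701). Dusp1 stood at 33.4, 555 and 197 CPM in pCEC, where pCEC 1 lay within the pNCC range of 25.8 to 35.9 CPM (3.07, adjusted p = 0.0183). With pCEC 1 as the only pCEC library the Dusp1 log2 fold change was 0.14. The Dusp1 call was also lost without pNCC 1 or pNCC 2 (adjusted p = 0.0651 and 0.0647), and its log2 fold change without pCEC 2 was 1.94. Epha2, a receptor tyrosine kinase of epithelia, averaged 15.9, 360 and 273 CPM and was higher in both (4.54 and 4.08, adjusted p = 0.00790 and 3.05e-05), with 3.91 in iCEC without iCEC 2. Ccnd1, the cyclin of the early cell cycle, averaged 99.2 ± 17.5, 766 ± 775 and 376 CPM (2.98 and 1.90, adjusted p = 0.0283 and 4.27e-05). Without iCEC 3 its log2 fold change in iCEC was 1.70, and that call was lost without any 1 pNCC library (adjusted p up to 0.109). Dusp5, a nuclear ERK phosphatase, was higher in pCEC than in pNCC (3.64, adjusted p = 5.09e-05). Other genes of the list were lower, among them the transcription factor genes Egr3 in iCEC (-2.41, adjusted p = 0.00469, but 0.0609 with all 9 libraries in 1 fit), Fosl1 in pCEC (-6.17, adjusted p = 0.000247) and Etv5 in iCEC (-1.77, adjusted p = 0.0111), the last lost without pNCC 2 or pNCC 3. Fosl1 averaged 5.15 CPM in pNCC and 0.0761 CPM in pCEC, and its log2 fold change was -7.24 without pCEC 3. At 0.0299 to 0.168 CPM in pCEC, Fosl1 passed the filter on low counts against pCEC through pNCC or iCEC alone. This fixes its direction in both comparisons with pCEC, and the counts of this list include it. In iCEC against pCEC, 2 genes were higher, Fosl1 (4.85, adjusted p = 0.0207) and Myc (1.36, adjusted p = 0.0369), and Etv5 was lower (-1.86, adjusted p = 0.0166), or 23.1% of the list against 20.4% of all tested genes. Each of these calls was lost in at least 2 fits that left out 1 library, with adjusted p up to 0.101. The Fosl1 difference was 3.99 without iCEC 1 and 5.99 without pCEC 3.

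**Figure D4:**
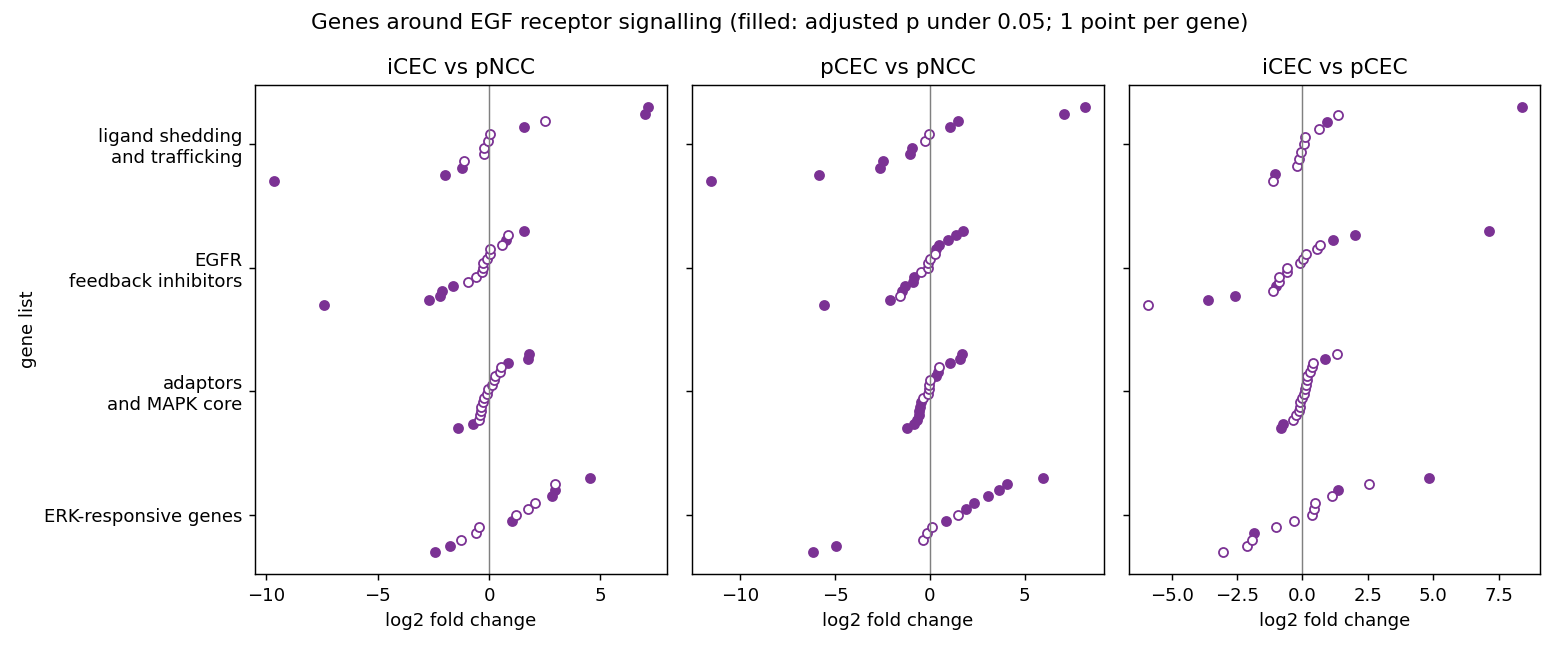
Log2 fold changes of the genes around EGF receptor signalling in the 3 comparisons, with 1 point per tested gene, filled where the adjusted p is under 0.05. In the comparisons with pNCC every list has filled points on both sides of 0, with the shedding list reaching -11.53 (Adam12 in pCEC). Adam12 passed the filter on low counts there through pNCC alone, which fixes its direction.

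Across the 9 libraries, the genes whose log2 CPM ran most like that of a member were looked up among 17616 expressed genes, as a description. Libraries of 1 group share their culture, so these correlations mostly describe the 3 groups. For Egfr they were Nek8 (Pearson r = 0.981), Gm10051 (0.974) and Aox2 (0.954), and for Erbb2 they were Zmiz2 (0.996), S1pr4 (0.996) and Mpst (0.995). For Erbb3 they were Aldh3a1 (0.987), Adap1 (0.986) and Cyb561d1 (0.984). For Areg they were Tyro3 (0.993), Cdh1 (0.985) and Bcl2l1 (0.984), and for Hbegf Xlr4b (0.994), Rab44 (0.992) and Sh3bp1 (0.992). Aldh3a1, the crystallin enzyme of the corneal epithelium, and Cdh1, which encodes E-cadherin, also stand in the marker lists of keratocytes and of surface epithelium.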

How the data were processed

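The authors deposited unnormalized counts for each gene symbol. The submitters' processing notes name mm10 as the build and edgeR as a tool. What edgeR was used for, the aligner, the counting tool, its strand setting and the annotation are not given in the sources used here. Models took only the 6 libraries being compared, in R 4.3.3 with edgeR 4.0.16 (filterByExpr, TMM, robust quasi-likelihood F test with group as the only term, 2-sided, Benjamini-Hochberg over all genes tested, threshold 0.05). The procedure was run on simulated counts in which few genes changed and no library stood apart. That run therefore does not bear on the calls here. SE is the absolute log2 fold change over the square root of F. CPM were scaled by TMM over all 9 libraries, and levels per kilobase used merged exons of GENCODE M21. DESeq2 1.42.0 and other settings are compared in the closing section. Floors and counting intervals (3 counts, 95%) cover counting error only.

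The 10 genes, the lists around them and the marker lists were chosen with earlier results of these data known. Named genes are all 10, the 5 other family genes, up to 4 called members per list and comparison with the smallest adjusted p, and the 3 genes most correlated with each of Egfr, Erbb2, Erbb3, Areg and Hbegf. Tables were handled in Python 3.11.15 with pandas 2.3.3 and figures drawn with matplotlib 3.10.9.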

Additional observations from a re-analysis of the deposited data

How the results depend on the processing

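For the 10 EGF family genes, the log2 fold change kept its sign and its side of the threshold in 109 of 120 refits for iCEC against pNCC, 127 of 130 for pCEC against pNCC and 102 of 130 for iCEC against pCEC. The 2 reversals were both in Nrg1 in iCEC against pNCC, at -0.00931 without iCEC 1 and -0.0151 without iCEC 2 (up to 0.53 without iCEC 3). For the other named genes, refitted as a choice made after seeing the data, 226 of 273, 294 of 311 and 167 of 259 kept both, and Egf (from -0.39 without pNCC 3 to 0.0817 without pNCC 1) and Nrg4 (from -0.263 without pNCC 2 to 0.73 without pNCC 1) reversed in iCEC against pNCC, none of them called. So did Fos there (from -0.314 without iCEC 2 to 3.53 without iCEC 1) and, in iCEC against pCEC, Dusp1 (from -1.59 without iCEC 2 to 0.150 without pCEC 2) and with pCEC 1 alone Fos (2.01) and Dusp1 (1.94), also not called. Leaving out 1 library in turn gave 4 to 7 family genes called in iCEC against pNCC, 9 to 10 in pCEC against pNCC (8 with all 9 libraries in 1 fit), and 0 to 4 in iCEC against pCEC. Over all genes it gave 2322 to 7684 calls against 5093 in iCEC against pNCC, with 2322 without pNCC 2 and 7684 without iCEC 3. For iCEC against pCEC it gave 1131 to 4974 calls against 3327.

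For iCEC against pCEC, calls over all genes were 3305 with DESeq2 size factors in edgeR, against 3327 in the main fit. They were 3098 with a filter of 1 CPM in 3 libraries, 4972 with all 9 libraries in 1 fit and 5001 with the DESeq2 Wald test. The count of 3 called family genes became 5 in the former pair of settings and 6 in the latter pair, as Btc and Egfr, and in the latter pair Erbb2, passed. It was 0 without pCEC 2 and 0 with pCEC 1 as the only pCEC library (the one labelled polyA RNA, assumed to vary like the other group), where edgeR gave 6 and 4 of the family genes an unadjusted p under 0.05. In the latter fit the count over all genes was 0, with 2529 of 18806 at an unadjusted p under 0.05, and DESeq2 on all libraries gave 5001. Same-numbered replicates did not deviate together (r of -0.18 to 0.07 over 9 pairs, 2 of 9 matching best with their own number). With 3 libraries per group this cannot decide whether the numbers pair the samples. A fit with the replicate number as a block called 2864 genes in iCEC against pNCC and 1295 in iCEC against pCEC, with 0 family genes in the latter (6 at an unadjusted p under 0.05), 6 in iCEC against pNCC and 9 in pCEC against pNCC. Hbegf and Erbb3 in iCEC against pNCC also passed with all 9 libraries in 1 fit (adjusted p = 0.0360 and 0.0208) and with the DESeq2 Wald test (0.0139 and 0.0227), and Ereg in pCEC against pNCC passed with the latter (0.0323). Fos and Dusp1 in pCEC against pNCC lost their calls with no filter on low counts (0.0640 and 0.113) and with the replicate block (0.0556 and 0.0632), and Spry1 there with all 9 libraries in 1 fit (0.455) and with the DESeq2 Wald test (0.0616). Nrg2 and Ccnd1 in iCEC against pNCC lost their calls with no filter on low counts (0.0655 and 0.0678). The cause of these changes was not tested. Scaling to library size alone moved the median log2 fold change of all genes in pCEC against pNCC from -0.01 to -0.16, less than the change of any called family gene there. With 9 shares of 30 moved by more than 1 SD under the longest transcript, the Hbegf share in pCEC was 53.6% and the Nrg1 share in iCEC 7.10%.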
